A study of Mus musculus with 13 samples.

Results

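To describe the degradative machinery of glomeruli in experimental membranous nephropathy (MN), transcripts of 45 lysosome, cathepsin and autophagy genes were followed in isolated mouse glomeruli. The 45 genes were taken by symbol from a table of 35967 symbols, all 45 were present, and all 45 were among the 14322 genes whose level was high enough to be tested. Wildtype Balb/c mice received a single intraperitoneal dose of 2.0 mg rabbit IgG. The control group (n = 5) received preimmune IgG, and MN mice received IgG against THSD7A, a podocyte membrane protein, with glomeruli taken at day 1 (n = 4) or day 5 (n = 4). Control mice from both days form 1 group, and the labels do not say which control mouse belongs to which day. Both MN groups are therefore compared with the same 5 mice. Per the study's methods, MN was induced in male mice only, and glomeruli were collected after perfusion of the kidneys with magnetic beads. Antibody is transferred into these animals, which limits the model to the action of injected rabbit IgG. The age of these mice was not used here.

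Lysosomes are acidic organelles in which hydrolases break down proteins, glycans and lipids delivered by endocytosis or by autophagy. Autophagy is the pathway that encloses cytoplasm in a double membrane, the autophagosome, and hands it to the lysosome. Podocytes are long-lived cells with a high rate of autophagy, and cathepsin L has been studied in them as a protease that acts on the cytoskeleton and the filtration barrier. Transcription factors of the MiT/TFE family (TFEB, TFE3 and MITF) activate many lysosomal and autophagy genes by binding an E-box in their promoters.

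Promoter sequences are shown for the 1 member that met both thresholds, *Ctss*, and for 3 members whose promoters hold the letters bound by MiT/TFE factors. Of the 45 members, 37 had a promoter in the RefSeq table of mouse build GRCm38.p6, which covers 250 bases before and 50 bases after each gene start. CACGTG, the E-box, was found on either strand in 12 of the 37 members (32.4%), against 8.09% of the 27025 genes in that table. Its extension TCACGTGA, the core of the element that coordinates lysosomal expression, always contains CACGTG and was found in 5 members (13.5%), namely *Cln3*, *Ctsa*, *Ctsd*, *Gla* and *Mcoln1*, against 1.12% of genes. GAAANNGAA, most of the core of the interferon-stimulated response element, was searched after the *Ctss* promoter had been read, and was found in 4 members (10.8%) against 9.76% of genes. These matches describe letters in a window and show no binding. The 100 bases before the start are given on the strand of the gene, with GAAANNGAA in capitals for *Ctss* and CACGTG in capitals for the others.
Ctss, chr3:95526686-95526785, plus strand: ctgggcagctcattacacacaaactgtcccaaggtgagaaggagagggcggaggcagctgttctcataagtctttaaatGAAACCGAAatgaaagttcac
Ctsd, chr7:142387828-142387927, minus strand: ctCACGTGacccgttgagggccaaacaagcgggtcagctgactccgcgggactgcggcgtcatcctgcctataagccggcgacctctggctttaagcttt
Lamp1, chr8:13159061-13159160, plus strand: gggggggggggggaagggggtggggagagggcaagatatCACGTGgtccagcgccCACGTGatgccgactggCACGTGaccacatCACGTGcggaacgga
Mcoln1, chr8:3500419-3500518, plus strand: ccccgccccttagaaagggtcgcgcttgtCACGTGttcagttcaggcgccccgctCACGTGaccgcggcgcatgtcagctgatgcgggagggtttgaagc
*Lamp1* held 4 matches in these 100 bases, *Mcoln1* 2, and *Ctsd* and *Ctss* 1 each.

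The authors deposited TPM, transcript abundance per length rescaled to a common total within each library, so levels of different genes can be compared and read depth is unknown. The deposited TPM summed to between 989774 and 996064 in the 13 libraries. Podocyte markers were high in all groups, with a summed TPM over 10 genes of 8260 to 11117. Libraries also held transcripts of tubules, the structures that surround glomeruli in the kidney. The summed TPM of 15 proximal tubule markers was 5252, 4627, 6767, 7103 and 13931 in control replicates 1 to 5. It was 12036, 11679, 7410 and 11006 at day 1, and 5568 to 6470 at day 5. Control replicate 5 thus stood apart from the other controls. Values without it are given beside the results that it moved most. Of 10 podocyte markers 1 was called, *Cdkn1c*, a cell cycle inhibitor, higher at day 5 (log2 fold change 0.72). The 10 podocyte markers went both ways at day 5, with 6 positive and 4 negative values from -0.46 to 0.72 and a median of 0.01. By the adjusted p alone 2 of them passed at day 5. Of 10 mesangial and contractile markers 1 was called, *Tagln*, encoding the actin-binding protein transgelin, higher at day 5 than in control (1.30) and than at day 1 (0.86). The 19 leukocyte markers summed to 108 to 165 in control libraries, 141 to 168 at day 1 and 142 to 186 at day 5. These are bulk libraries, in which fewer cells of a type and less RNA per cell cannot be told apart.

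Lysosome, cathepsin and autophagy transcripts were abundant in control glomeruli. The median of their control means was 65.6 TPM, against 22.6 over all tested genes, and 18 members reached at least 100 TPM while 5 stayed under 10. *Laptm4a*, a lysosomal transmembrane protein, was highest with 1111 ± 38.5 TPM (mean ± SD, n = 5). It was followed by *Psap*, the precursor of the saposins that assist sphingolipid breakdown (668 ± 14.8), and *Ctsl*, the cysteine protease cathepsin L (524 ± 55.5). *Lamp1*, a major glycoprotein of the lysosomal membrane (516 ± 13.7), and *Sqstm1*, the autophagy receptor p62 (482 ± 12.7), came next and differed from *Ctsl* by less than its SD. At the other end were *Galns*, *Mitf*, *Ctss* and *Ctsk*, of which *Ctsk*, encoding cathepsin K, had 3.84 ± 1.1 TPM. The levels were steady between control mice, with a median coefficient of variation of 6.68% against 12.1% over all tested genes. In 35 members it was under 10%, and in 5 members it was above 20%. All 45 members together took between 0.676% and 0.750% of the TPM in each of the 13 libraries.

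**Figure D1:**
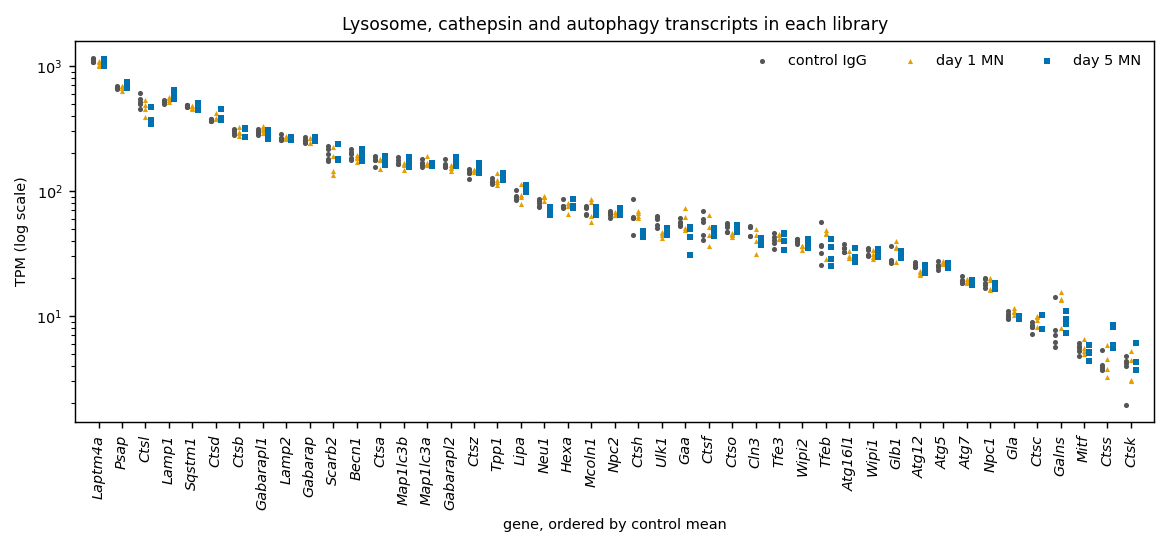
TPM (log scale) of each of the 45 genes in each library, ordered by the control mean, with circles for control mice (n = 5), triangles for day 1 MN (n = 4) and squares for day 5 MN (n = 4). Levels run from about 1000 TPM for *Laptm4a* down to under 10 TPM for *Ctsk*, and for 34 of the 45 genes the highest of the 13 libraries is less than 1.5 times the lowest.

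Across the members, transcript levels in MN glomeruli stayed close to those of control mice. In 34 members the highest of the 13 libraries was under 1.5 times the lowest, and it was over 2 times the lowest in 6 members (*Ctss*, *Ctsh*, *Ctsk*, *Gaa*, *Galns* and *Tfeb*). The median log2 fold change of the 45 members was 0.05 at day 1 and 0.02 at day 5, beside -0.003 at each day over all tested genes. The median absolute log2 fold change was 0.090 at day 1 and 0.068 at day 5, beside 0.109 and 0.128 over all tested genes. The 95% interval of the fold change lay within 0.5 log2 units of 0 for 40 members (88.9%) at day 1 and 37 members (82.2%) at day 5, beside 65.2% and 61.3% of all tested genes. The median standard error was 0.076 for the members and 0.116 over all tested genes. At day 1 the share was 82.5% for other lysosomal hydrolases, 88.5% for other lysosomal membrane proteins and 93.3% for other autophagy genes.

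Fold changes were tested with limma on log2 of the scaled TPM plus 0.5, a scale that understates changes of genes with low TPM. A gene was called at a Benjamini-Hochberg adjusted p under 0.05 over all tested genes together with an absolute log2 fold change above 0.5. At day 1, 0 of 45 members were called, where 0.0908% of all tested genes were, and 6 members had an unadjusted p under 0.05. Without control replicate 5 this background rose to 218 of 14257 tested genes (1.53%), and 1 of 45 members was called. By the adjusted p alone 0 members passed, where 0.133% of all tested genes did. At day 5, 1 of 45 members was called, *Ctss* (2.22%), where 3.21% of all tested genes were called and 2.42% were called higher. By the adjusted p alone *Ctss* and *Ulk1* passed (4.44%), where 6.12% of all tested genes did, and 11 members had an unadjusted p under 0.05. Between day 5 and day 1, 0 members were called, where 1.81% of all tested genes were, and 6 had an unadjusted p under 0.05. Without control replicate 5 the background was 437 of 14257 tested genes (3.07%), and 1 member was called. *Neu1* passed by the adjusted p alone, where 2.38% of all tested genes did. For each of these contrasts limma was the tool run.

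Groups whose libraries did not overlap were also counted, on TPM as deposited, before the scaling used for the fold changes. At day 1, *Ctsd* was above all control libraries, and *Atg12*, *Ctso*, *Ulk1* and *Wipi2* were below all of them, which makes 5 of 45 members (11.1%) where 4.22% of all tested genes showed no overlap. At day 5, *Ctss* and *Lamp1* were above and *Cln3*, *Gaa*, *Neu1* and *Ulk1* below all control libraries, 6 of 45 members (13.3%) where 10.8% of all tested genes showed no overlap. Between the MN days, *Ctso* was higher and *Ctsh*, *Gla* and *Neu1* were lower at day 5 without overlap (8.89%), where 11.0% of all tested genes showed none. At day 5 and between the days these shares lay near the background, and no test was run over the members as a list. Of all tested genes at day 1, 130 were above and 475 below all controls. Without further scaling, the median log2 fold change of all genes at day 1 was -0.05. Scaling can make narrowly separated groups overlap, and overlaps were not counted after it, so no excess of members at day 1 is read from these shares.

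**Figure D2:**
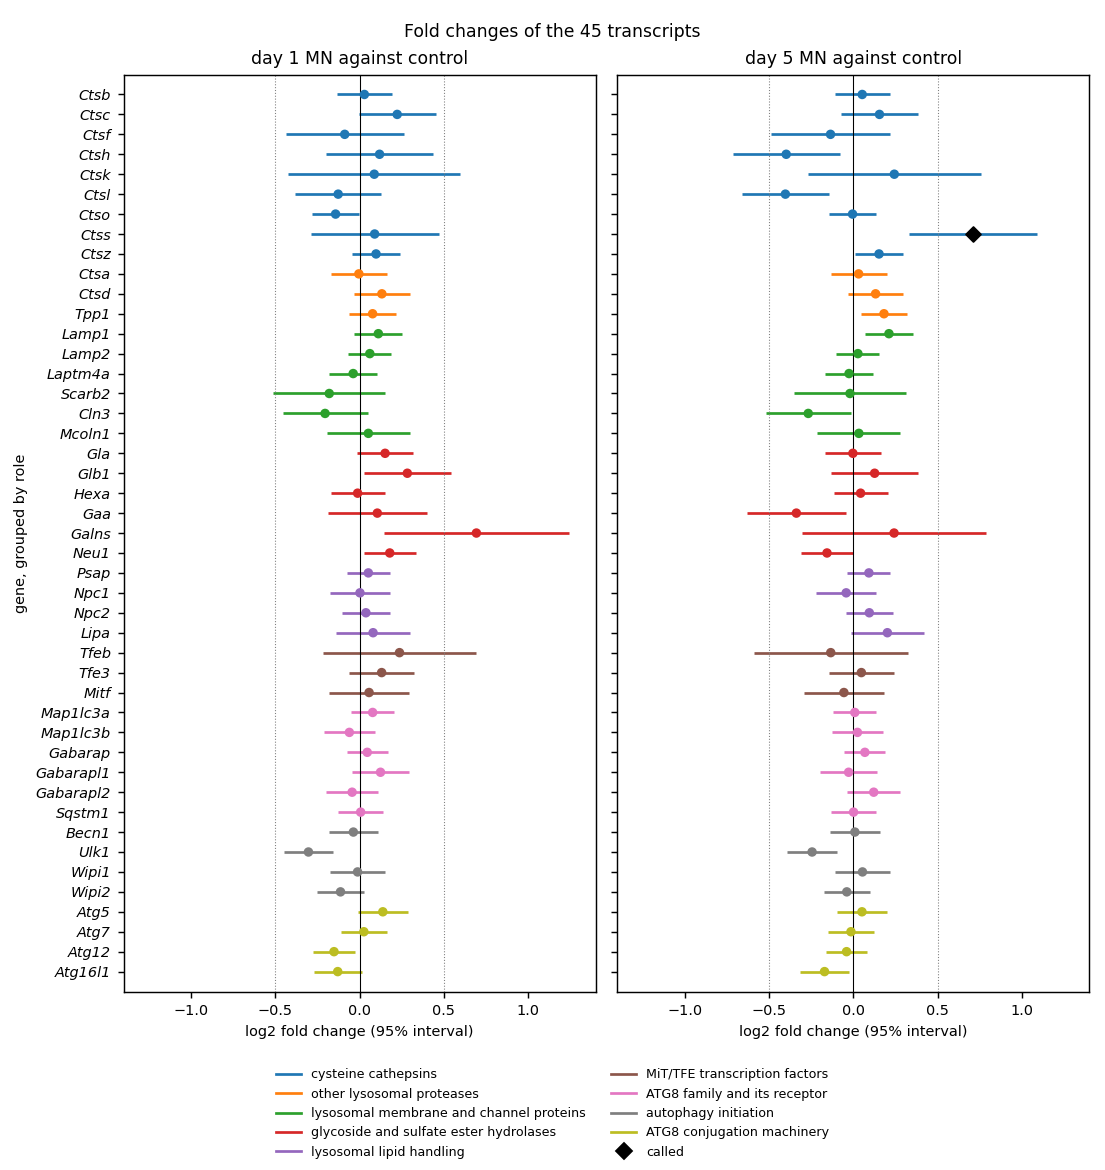
Log2 fold changes with 95% intervals of the 45 genes at day 1 (left) and day 5 (right) against control, coloured by role, with dotted lines at 0.5 log2 units on either side of 0. The points lie between -0.30 and 0.69 at day 1 and between -0.40 and 0.71 at day 5, and the black diamond marks *Ctss*, the called member.

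Cysteine cathepsins are proteases that cleave proteins inside the lysosome and, when secreted, outside the cell. Of the 9 cysteine cathepsins, *Ctss* was called higher at day 5, while *Ctsl* and *Ctsh* had the lowest fold changes without meeting the thresholds. *Ctss* encodes cathepsin S, a protease of antigen-presenting cells that trims the invariant chain of MHC class II and stays active at neutral pH. It had 3.87, 3.74, 4.08, 5.36 and 3.67 TPM in control replicates 1 to 5. At day 1 it had 5.84, 3.26, 3.77 and 4.55 TPM, and at day 5 it had 5.53, 8.19, 8.46 and 5.81 TPM. The day 5 libraries lay above all control libraries, by a narrow margin for the lowest of them, and they overlapped with day 1. *Ctss* rose at day 5 by a log2 fold change of 0.71 (SE 0.18, 95% interval 0.33 to 1.09, adjusted p = 0.0293, limma with Benjamini-Hochberg adjustment). Its log2 fold change was 0.09 at day 1 (interval -0.29 to 0.47), and the difference between day 5 and day 1 was 0.62 (adjusted p = 0.112, limma), so it was not shown to differ between the days.

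The *Ctss* call depended on single libraries. Its log2 fold change stayed between 0.62 and 0.80 when any 1 of the 13 libraries was left out, but it was no longer called without control replicate 1, 2, 3 or 5 or without day 5 replicate 2 or 3, with adjusted p values of 0.0577 to 0.106 (limma). It was not called without the filter on low TPM (adjusted p = 0.0602, limma). *Ctss* is a scarce transcript in these glomeruli. It made up 0.216% to 0.317% of the summed TPM of the 11 cathepsins in control libraries and 0.335% to 0.547% at day 5. The locus lies at chr3:95433963-95463717 of GRCm39 on the plus strand and overlaps *Hmgb1-ps5*, a processed pseudogene on the same strand.

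Leukocyte markers were read beside *Ctss*, since cathepsin S is abundant in myeloid cells. Of the 19 markers, 13 were tested, 0 of the 13 were called at either MN day, and 12 of the 13 had a positive fold change at day 5 (median 0.19 on the log2 scale). *Ptprc*, the pan-leukocyte antigen CD45, had a mean of 2.40 TPM in control, 2.34 at day 1 and 4.03 at day 5 libraries (day 5 log2 fold change 0.71, adjusted p = 0.131, limma). *Csf1r*, the macrophage growth factor receptor, had means of 5.38, 5.10 and 5.57 TPM. *Adgre1*, encoding the macrophage marker F4/80, was under the filter, with 0.0323 to 0.210 TPM in control and 0.211 to 1.60 TPM in day 5 libraries. None of *Ptprc*, *Csf1r*, *Adgre1* and *Cd68* was at 0 in any library, and of the 19 markers *Ms4a7* was listed at 0 in 1 library. Their part in the *Ctss* result was not tested.

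Cathepsin L was the most abundant cathepsin transcript of control glomeruli. *Ctsl* had 548, 454, 602, 516 and 499 TPM in control libraries, 454, 490, 387 and 531 TPM at day 1, and 370, 467, 372 and 340 TPM at day 5. Of the day 5 libraries, 3 lay below all controls and replicate 2 lay within their range. The log2 fold change was -0.40 at day 5 (SE 0.12, interval -0.66 to -0.15, adjusted p = 0.065, limma) and -0.13 at day 1. Without day 5 replicate 2, *Ctsl* was called lower (log2 fold change -0.51, adjusted p = 0.0279, limma). Its locus, chr13:64507151-64518704 of GRCm39 on the minus strand, overlaps a processed pseudogene on the same strand and a noncoding gene on the other.

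*Ctsh*, encoding cathepsin H, an aminopeptidase that is also found in epithelial cells, had 60.8, 44.8, 61.5, 61.3 and 87.0 TPM in control libraries. It had 66.7, 63.0, 61.3 and 69.1 TPM at day 1 and 44.9, 48.0, 42.7 and 46.9 TPM at day 5. The MN days did not overlap, and day 5 overlapped with control replicate 2 only. The log2 difference between day 5 and day 1 was -0.52 (SE 0.16, interval -0.85 to -0.18, adjusted p = 0.116, limma), and that between day 5 and control was -0.40 (adjusted p = 0.143, limma). Without control replicate 5 the difference from control was -0.26 (adjusted p = 0.193, limma). It was called lower at day 5 against control without control replicate 2 (log2 fold change -0.52, adjusted p = 0.0200, limma). It was also called lower at day 5 than at day 1 without control replicate 2 (adjusted p = 0.0369) or control replicate 5 (adjusted p = 0.0150). With the proximal tubule marker level as a covariate the difference between the days was -0.17 (adjusted p = 0.677, limma). This fit cannot separate the marker level from the day, since the proximal tubule sums of the MN days did not overlap. *Ctsh* was highest in control replicate 5, the library with the highest proximal tubule sum.

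The remaining 6 cysteine cathepsins had day 5 log2 fold changes between -0.14 (*Ctsf*) and 0.24 (*Ctsk*). Without control replicate 5, the value of *Ctsk* was 0.06. *Ctsb*, encoding cathepsin B, had 271 to 327 TPM in the 13 libraries and a day 5 log2 fold change of 0.05 (interval -0.11 to 0.22). *Ctsz*, a carboxypeptidase, was at 0.15 at day 5 (adjusted p = 0.22, limma), and *Ctsc*, which activates granule serine proteases, was at 0.22 at day 1 and 0.15 at day 5. Before scaling, *Ctso* was below all control libraries at day 1 (42.9 to 45.9 TPM against 46.6 to 55.8 TPM) and back within their range at day 5. Its log2 fold changes were -0.14 and -0.01.

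The other proteases are *Ctsd*, encoding the aspartic protease cathepsin D, *Ctsa*, a serine carboxypeptidase that also stabilises neuraminidase and galactosidase, and *Tpp1*, a tripeptidyl peptidase. *Ctsd* had 361 to 378 TPM in control libraries and 379 to 424 TPM at day 1, without overlap before scaling, and 370 to 453 TPM at day 5. Its log2 fold change was 0.13 at each day, with an adjusted p of 0.498 at day 1 and 0.377 at day 5 (limma). Without day 1 replicate 2 the day 1 value of *Ctsd* was 0.09, and without day 5 replicate 1 its day 5 value was 0.04. *Tpp1* reached 0.18 at day 5 (adjusted p = 0.122), and *Ctsa* was at -0.004 and 0.03 at the 2 days. Summed over all 11 cathepsins, the TPM was 1642 to 1733 in control libraries, 1550 to 1731 at day 1 and 1449 to 1656 at day 5. The day 5 sums overlapped with the control range, while day 5 replicates 3 and 4 (1546 and 1449) lay below all controls. The 9 cysteine cathepsins alone summed to 1080 to 1211 in control libraries, 993 to 1133 at day 1 and 912 to 1104 at day 5.

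**Figure D3:**
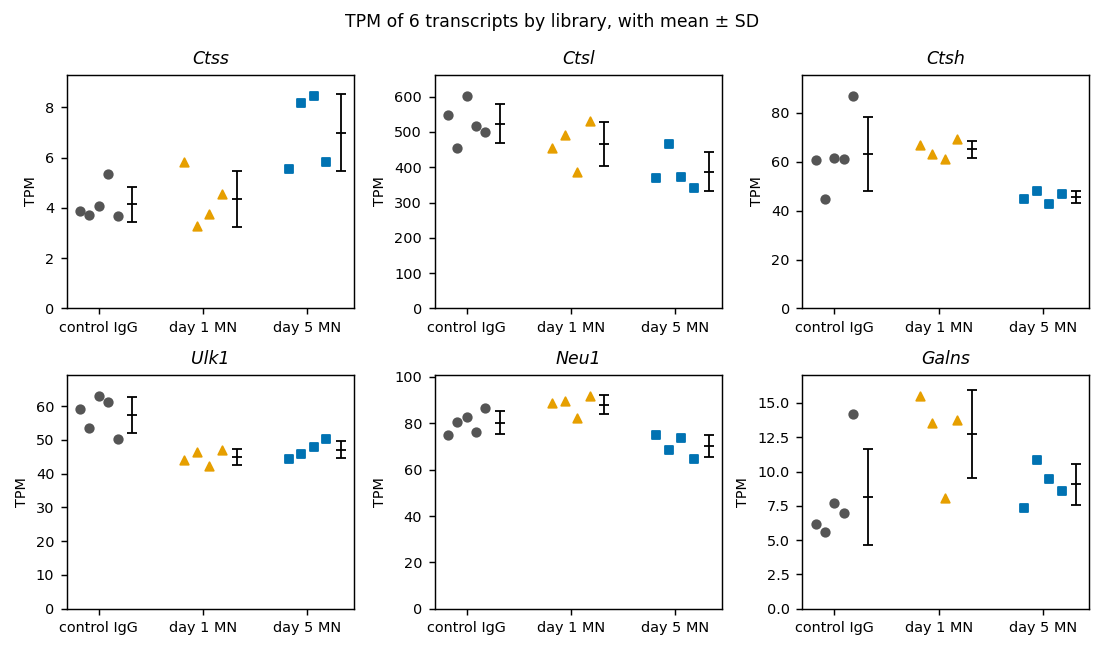
TPM of *Ctss*, *Ctsl*, *Ctsh*, *Ulk1*, *Neu1* and *Galns* in each library by group, with each axis starting at 0 and the mean ± SD beside the points (control n = 5, day 1 MN n = 4, day 5 MN n = 4). Day 5 libraries are above all controls for *Ctss*, at or below the lowest control for *Ulk1* and *Neu1*, and below all day 1 libraries for *Ctsh* and *Neu1*, while *Galns* is high in 3 day 1 libraries and in control replicate 5.

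Lysosomal membrane and channel proteins stayed within 0.27 log2 units of control at both days, and 0 of the 6 were called at either. *Lamp1* had 500, 536, 517, 507 and 521 TPM in control libraries, 551, 560, 537 and 513 TPM at day 1, and 638, 597, 560 and 541 TPM at day 5. All day 5 libraries lay above the highest control. The log2 fold change at day 5 was 0.21 (SE 0.07, interval 0.07 to 0.35, adjusted p = 0.083, limma). *Lamp2*, whose product takes part in the fusion of autophagosomes with lysosomes, was at 0.06 and 0.03, and *Laptm4a* was at -0.04 and -0.03. *Cln3*, mutated in juvenile neuronal ceroid lipofuscinosis, had 43.6 to 52.9 TPM in control and 36.9 to 41.8 TPM in day 5 libraries, without overlap before scaling. From the scaled values, its day 5 log2 fold change was -0.27 (adjusted p = 0.219, limma). *Mcoln1*, the calcium channel TRPML1, was at 0.05 and 0.03. *Scarb2*, the sorting receptor of glucocerebrosidase, was at -0.18 and -0.02.

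Hydrolases of glycans and sulfate esters had 0 of 6 genes called in each contrast, while *Neu1* differed between the MN days by the adjusted p alone. The 6 genes are *Gla* and *Glb1*, encoding an alpha- and a beta-galactosidase, *Hexa*, a hexosaminidase subunit, *Gaa*, the acid glucosidase that degrades glycogen, *Galns*, a sulfatase of keratan sulfate, and *Neu1*, the lysosomal sialidase. Their summed TPM was 251 to 273 in control libraries, 274 to 283 at day 1 and 229 to 253 at day 5. Of the 6 fold changes between day 5 and day 1, 5 were negative, with a median of -0.25 on the log2 scale beside 0.005 over all tested genes. Between the same days all 15 proximal tubule markers had a negative value (median -0.73), 11 of them without overlap, and 1 was called lower at day 5 (*Cyp4b1*, a cytochrome P450, -0.64). With the proximal tubule marker level as a covariate, the difference between the days went from -0.45 to 0.15 for *Galns* and from -0.16 to 0.10 for *Glb1*. The proximal tubule sums of these days did not overlap, so the fit cannot separate the marker level from the day. *Neu1* had 74.9, 80.8, 82.9, 76.4 and 86.7 TPM in control libraries. It had 88.9, 89.4, 82.4 and 91.7 TPM at day 1 and 74.9, 68.4, 73.5 and 64.4 TPM at day 5. The MN days were apart, and the highest day 5 library and the lowest control library both rounded to 74.9 TPM.

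The test of the difference between the days gave a log2 value of -0.34 for *Neu1* (SE 0.08, interval -0.50 to -0.17, adjusted p = 0.0328, limma with Benjamini-Hochberg adjustment), below the fold threshold of a call. Against control it was 0.18 at day 1 (adjusted p = 0.34) and -0.16 at day 5 (adjusted p = 0.239). With the proximal tubule marker level as a covariate the difference between the days was -0.23 (adjusted p = 0.309, limma), in a fit that cannot separate this level from the day. The locus, chr17:35150165-35156292 of GRCm39 on the plus strand, overlaps the noncoding gene *1110038B12Rik* on the other strand, and the sources used here do not say whether strand was used in quantification. *Gaa* had 52.7 to 60.3 TPM in control libraries, 49.0 to 73.6 TPM at day 1 and 30.6, 49.7, 51.9 and 42.7 TPM at day 5. The day 5 log2 fold change of *Gaa* was -0.34 (adjusted p = 0.178, limma), and it was -0.20 without day 5 replicate 1.

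*Galns* had the largest day 1 fold change among the members, and it was high in the libraries with the most tubular transcripts. It had 6.20, 5.61, 7.70, 7.0 and 14.2 TPM in control libraries and 15.5, 13.5, 8.08 and 13.7 TPM at day 1. It had 7.35, 10.9, 9.43 and 8.59 TPM at day 5. The 4 libraries above 13 TPM were control replicate 5 and day 1 replicates 1, 2 and 4, which were also the 4 libraries with the highest proximal tubule sums. The day 1 log2 fold change was 0.69 (SE 0.25, interval 0.15 to 1.24, adjusted p = 0.309, limma). It was 0.92 and called without control replicate 5 (adjusted p = 0.0316), and it was 0.12 with the proximal tubule marker level as a covariate (adjusted p = 0.900). At day 1, the 15 proximal tubule markers all had a positive fold change with a median of 0.74 on the log2 scale, and 0 of 15 were called. The 10 tested markers of the loop, distal tubule and collecting duct were positive at day 1 as well (median 0.68), 4 of them without overlap, and 1 was called higher (*Pvalb*, a calcium buffer, 1.43). All 10 were negative between day 5 and day 1, and 3 were called lower at day 5, namely *Pvalb* (-1.38), the calcium-binding protein *Calb1* (-1.39) and the water channel *Aqp2* (-1.30). The part of tubular transcripts in the *Galns* and *Glb1* values was not tested. The covariate cannot fully separate tubular transcripts from the group. Proximal tubule sums were 7410 to 12036 at day 1 and 4627 to 7103 in control replicates 1 to 4. *Glb1* was likewise highest in control replicate 5 among controls (36.2 TPM against 26.4 to 27.8 TPM), and its day 1 log2 fold change of 0.28 became 0.04 with this covariate and 0.38 without control replicate 5 (adjusted p = 0.0731, limma). *Gla* and *Hexa* stayed between -0.01 and 0.15 at both days.

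**Figure D4:**
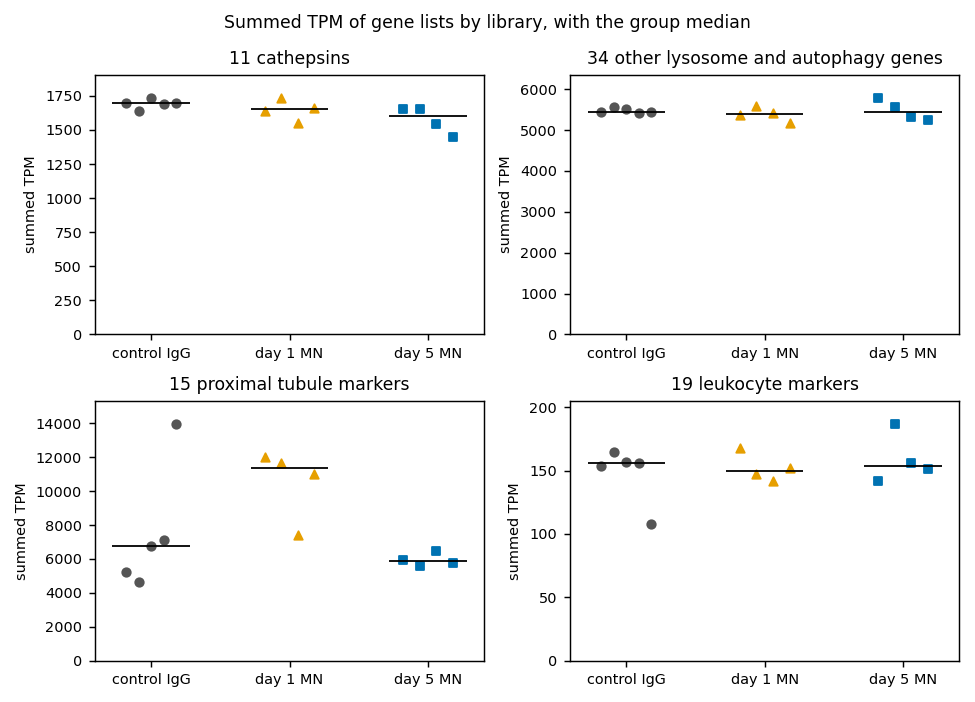
Summed TPM in each library, by group, of the 11 cathepsins, the other 34 genes, 15 proximal tubule markers and 19 leukocyte markers, with a line at the group median and each axis starting at 0. The cathepsin sum runs from 1449 to 1733, with its lowest value at day 5, and the sum of the other 34 genes from 5183 to 5781. The proximal tubule sum reaches 13931 in control replicate 5 and 12036 at day 1.

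Genes of lysosomal lipid handling held their level, with 0 of 4 called at each day. *Psap* had 635 to 739 TPM in all 13 libraries, with a log2 fold change of 0.05 at day 1 and 0.09 at day 5. *Npc1* and *Npc2*, which export cholesterol from the lysosome, lay between -0.04 and 0.09. *Lipa*, the acid lipase that releases cholesterol from its esters, was at 0.20 at day 5 (interval -0.02 to 0.42, adjusted p = 0.289, limma).

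The MiT/TFE factors were expressed at low to moderate levels, and 0 of 3 were called. *Tfeb* had 31.8, 56.0, 36.8, 36.5 and 25.3 TPM in control libraries, 28.4 to 48.8 TPM at day 1 and 25.1 to 41.1 TPM at day 5. All 3 groups overlapped. Its log2 fold changes of 0.24 and -0.13 had wide intervals (-0.22 to 0.69 and -0.59 to 0.32), and *Tfeb* had a control coefficient of variation of 30.7%. *Tfe3* (control mean 40.6 TPM) was at 0.13 and 0.05, and *Mitf* (5.48 TPM) at 0.06 and -0.06. These are transcript levels, and MiT/TFE factors are known to be controlled largely through phosphorylation and nuclear entry, which was not measured here.

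The 5 genes of the ATG8 family, ubiquitin-like proteins attached to autophagosome membranes, and the receptor *Sqstm1*, which links ubiquitinated cargo to them, stayed close to control. All 6 lay between -0.06 and 0.12 on the log2 scale at both days, and each 95% interval stayed within 0.5 log2 units of 0. *Sqstm1* had 467 to 491 TPM in control libraries, 455 to 479 TPM at day 1 and 444 to 505 TPM at day 5. Its log2 fold changes were 0.01 at day 1 and 0.00 at day 5. *Map1lc3a* and *Map1lc3b*, encoding LC3A and LC3B, were at 0.08 and -0.06 at day 1 and at 0.01 and 0.02 at day 5. *Gabarap*, *Gabarapl1* and *Gabarapl2* had day 5 values of 0.07, -0.03 and 0.12.

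Among genes of autophagy initiation, *Ulk1* passed the test at day 5 by the adjusted p alone, and 0 of 4 were called. *Ulk1* encodes the kinase that starts autophagosome formation downstream of nutrient sensing. It had 59.1, 53.5, 62.9, 61.3 and 50.3 TPM in control libraries, 44.1, 46.2, 42.1 and 47.1 TPM at day 1, and 44.4, 45.8, 47.9 and 50.3 TPM at day 5. All MN libraries lay below all controls, although the highest day 5 library and control replicate 5 both rounded to 50.3 TPM. The log2 fold change was -0.30 at day 1 (SE 0.07, interval -0.45 to -0.16, adjusted p = 0.146, limma), and without control replicate 5 it was -0.33 with an adjusted p of 0.0279, still under the fold threshold. At day 5 it was -0.25 (SE 0.07, interval -0.39 to -0.10, adjusted p = 0.0495, limma), so *Ulk1* fell at day 5 by the adjusted p alone and stayed under the fold threshold. The 2 fold changes share their controls and differed by 0.06 (adjusted p = 0.775). The day 5 adjusted p ran from 0.0300 without control replicate 2 to 0.124 without day 5 replicate 2. *Becn1*, a subunit of the lipid kinase complex of autophagy, and *Wipi1*, which reads the lipid it makes, lay between -0.04 and 0.05. *Wipi2*, which recruits the conjugation machinery, was below all controls at day 1 before scaling (33.7 to 36.6 TPM against 37.8 to 41.2 TPM). Its log2 fold change was -0.11 at day 1 (adjusted p = 0.49, limma) and -0.04 at day 5.

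The conjugation machinery that attaches ATG8 proteins to membranes had 0 of 4 genes called. *Atg12* was below all controls at day 1 (21.1 to 23.1 TPM against 24.4 to 27.0 TPM) with a log2 fold change of -0.15 (adjusted p = 0.321, limma), and at -0.04 at day 5. *Atg16l1*, which places the conjugating complex on the membrane, was at -0.13 and -0.17 (adjusted p = 0.441 and 0.164). *Atg5*, the partner of ATG12, was at 0.14 and 0.05, and *Atg7*, the activating enzyme, at 0.03 and -0.01.

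Further genes of the same pathways were examined as lists that did not include the members. Of 40 other lysosomal hydrolases, 26 other lysosomal membrane proteins, 22 V-ATPase subunits, 29 genes of mTORC1 and its lysosomal regulators and 45 other autophagy genes tested, 0 were called in any contrast. Their median log2 fold changes at day 5 were 0.10, 0.03, 0.04, 0.01 and -0.05 in this order, beside -0.003 over all tested genes. By the adjusted p alone, *Naglu*, which degrades heparan sulfate, passed at day 5 with a log2 fold change of 0.33 (adjusted p = 0.0263, limma), from 21.1 to 26.1 TPM. *Optn*, encoding the mitophagy receptor optineurin, passed with -0.48 (adjusted p = 0.00716, limma), from 96.6 to 67.5 TPM. *Naglu* and *Optn* were chosen after their values were seen. The day 5 log2 fold changes of the most abundant gene of each list were 0.24 for the hyaluronidase *Hyal2*, 0.20 for the tetraspanin *Cd63*, 0.03 for the proton pump accessory subunit *Atp6ap1*, 0.04 for the Ragulator subunit *Lamtor5* and 0.05 for the late endosomal GTPase *Rab7*, and 0 of these 5 passed the test.

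Outside the 11 member cathepsins, 2 of 13 related proteases reached the level for testing. These were *Lgmn*, the asparaginyl endopeptidase legumain (68.8, 93.2 and 77.5 TPM in control, day 1 and day 5 means), and *Ctsw*, a cathepsin of cytotoxic lymphocytes (0.658, 0.629 and 1.14 TPM), and neither was called. Of 13 cystatins and other inhibitors, 5 were tested and 0 were called, with *Cst3*, the secreted inhibitor cystatin C, at 1214 TPM in control and a day 5 log2 fold change of -0.04. *Cstb*, the intracellular inhibitor cystatin B, was at 0.21 at day 5 (adjusted p = 0.203, limma). The day 5 log2 fold changes of the 5 tested inhibitors ran from -0.43 to 0.21.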

How the data were processed

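Total RNA of isolated glomeruli was sequenced, 1 library per mouse. Per the study's methods and the submitters' processing notes, reads were checked with FastQC (0.11.9), trimmed with Trimmomatic (0.39) and quantified with kallisto (0.46.2) against GRCm39. The authors deposited TPM values, 1 per gene symbol and library. TPM holds no depth, so counting intervals and detection floors could not be given. The study tested counts with DESeq2, which were not used here.

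Groups came from the sample labels. Scaling used median-of-ratios factors (0.955 to 1.04) over 15772 genes detected in all libraries, with a pseudocount of 0.5 before log2. The filter kept genes reaching a TPM of 1 in 4 or more libraries. The fit was made with limma (3.58.1, R 4.3.3) using a mean-variance trend and all 3 groups, and adjustment followed Benjamini and Hochberg within a contrast. TPM levels and overlaps are as deposited, and fold changes use the scaled values. The fit was tested on simulated data.

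Members and lists were chosen with earlier results of these data known, so no test was run over a list. Named genes are all 45 members, genes called in the other lists, and the most abundant gene of each of the lists of related genes. *Naglu*, *Optn*, *Ctsw*, *Cstb*, *Ptprc*, *Csf1r*, *Adgre1*, *Cd68* and *Ms4a7* were named for their role after values were seen. Of the 45 loci, 30 overlap another annotated gene in GENCODE on GRCm39. Alternatives covered pseudocounts, scaling, filters, trend, groups in the fit, replicate block, weights, a tubule covariate, the adjusted p alone and leaving out each library. Figures were made in matplotlib (3.10.9, Python 3.11.15).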

Additional observations from a re-analysis of the deposited data

Results flagged for a closer look

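Within each group of 4 or 5 libraries, the library farthest from the others was compared with the range of its group by Dixon's criterion, which flags about 1 in 20 groups by chance. Of 135 combinations of a member and a group, 11 held such a library, in 10 members. Control replicate 5 stood apart with 14.2 TPM of *Galns*, 36.2 TPM of *Glb1* and 1.94 TPM of *Ctsk*, and it was also the control library with the highest proximal tubule sum. Control replicate 4 had 5.36 TPM of *Ctss*, and control replicate 2 had 86.9 TPM of *Hexa*. Day 1 replicate 2 stood apart with 424 TPM of *Ctsd*, 141 TPM of *Ctsz* and 67.3 TPM of *Npc2*. Day 5 replicate 1 stood apart with 453 TPM of *Ctsd* and 236 TPM of *Scarb2*, and day 5 replicate 4 had 271 TPM of *Ctsb*.

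*Neu1* differed between the MN days by the adjusted p alone, under the fold threshold of a call. The log2 difference between day 5 and day 1 was -0.34 (adjusted p = 0.0328, limma with Benjamini-Hochberg adjustment), with all 4 day 5 libraries below all 4 day 1 libraries. The adjusted p ran from 0.0160 to 0.106 when each library was left out, and the difference was -0.23 (adjusted p = 0.309, limma) with the proximal tubule marker level as a covariate. The 15 proximal tubule markers had a median of -0.73 between the same groups, and their part in this result was not tested. The covariate cannot separate them from the day, since the proximal tubule sums of the MN days did not overlap.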

How the results depend on the processing

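No member changed the direction of a called value under any alternative. Of 3240 values of single members under alternatives, 3191 kept their side of the threshold and moved by less than their standard error. Another 34 moved further, 7 became calls and 8 lost the call. The 8 lost calls are all *Ctss* at day 5. At day 1, the count of called members was 0, and leaving out each library in turn gave 0 to 1, with *Galns* called without control replicate 5. At day 5, the count of 1 became 0 without the filter on low TPM and 2 by the adjusted p alone. It ran from 0 to 1 when each library was left out. *Ctss* was still called in 7 of the 13 fits, and the called member was *Ctsh* without control replicate 2 and *Ctsl* without day 5 replicate 2. Between day 5 and day 1, the count of 0 became 1 when control libraries were kept out of the fit, leaving the 2 compared groups (*Ctsh*), 1 by the adjusted p alone (*Neu1*), and 0 to 1 when each library was left out (*Ctsh* without control replicate 2 or 5). The cause of these moves was not tested. The median log2 fold change of the members lay near 0. It was positive under every alternative at day 1 and changed sign at day 5 and between the days. Over all alternatives it ran from 0.006 to 0.06 at day 1, from -0.02 to 0.05 at day 5 and from -0.03 to 0.04 between the days.

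Replicate numbers did not pair the samples, as deviations of same-numbered libraries correlated between -0.0563 and 0.0913. With the replicate block the count was 0 at day 5 (*Ctss* 0.69, adjusted p = 0.128, limma) and 1 between the days (*Ctsh*, adjusted p = 0.0345, limma), and 149 of all tested genes were called at day 1 against 13 without it. Only the control group has a replicate 5, so the block takes that library out of the comparison. Leaving out control replicate 5 gave 218 called genes at day 1. Depth was unknown, so the counting error of scarce members such as *Ctss* and *Ctsk* could not be estimated. Without further scaling, the median of all genes moved to -0.05 at day 1 and -0.04 at day 5 on the log2 scale. The proximal tubule covariate moved 23 values by more than their standard error, all of them at day 1 or between the days. Among all tested genes, calls with this covariate went from 13 to 0 at day 1, from 460 to 478 at day 5 and from 259 to 156 between the days.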

Other observations

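*Ctss* was set beside all tested genes by the Pearson correlation of log2 values over the 13 libraries, which share the group differences described above. The 5 most alike were *Tcf12* (r = 0.944), *Cenpi* (0.943), *Pxdn* (0.919), *Ankle1* (0.914) and *Mpeg1* (0.913). *Cenpi*, a kinetochore component, had a mean TPM of 0.844 in control, 1.02 at day 1 and 2.32 at day 5 libraries. *Ankle1*, a nuclease, had 0.425, 0.399 and 2.56. *Mpeg1*, encoding the macrophage protein perforin-2, had 1.98, 2.21 and 3.12, with a day 5 log2 fold change of 0.56 (adjusted p = 0.112, limma with Benjamini-Hochberg adjustment).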
